A study of Mus musculus with 10 samples.

Results

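Chaperones of the cytosol and of the endoplasmic reticulum (ER) were followed as 2 lists of genes, the heat shock response with 17 genes and the unfolded protein response of the ER with 17 genes. A gene was taken as measured where a probe set of the array carried its symbol and no other, and where a gene had several such probe sets the 1 of highest mean over all 10 arrays stood for it. By this rule 31 of the 34 listed genes were measured, 14 of the cytosol and 17 of the ER, out of 19938 symbols on the array. All 31 also passed the filter on dim probe sets (a mean above 4.52 on the log2 scale), which left 14953 genes for testing. The platform annotation gave no probe set of their own to Hspa1b, Hsp90ab1 and Hsf1. Hspa1b shares a probe set with its near-identical neighbour Hspa1a, and the probe set named for Hspa1a alone is therefore uncertain as a measure of either gene.

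The study compared the bone marrow of 5 Hspa9+/+ littermates, called wild type here, with that of 5 Hspa9+/- mice, called heterozygous. The marrow of each mouse was grown for 7 days in methylcellulose as CFU-PreB, colonies that arise from single B cell precursors, in M3630 medium, and B220+ cells of the colonies were sorted and measured on 1 Mouse Gene 1.0 ST array per mouse. No treatment was given to either group, and the sources used here give no strain, age or way in which the Hspa9 allele was made. Values are log2 expression after robust multi-array averaging (RMA), in which a shift shared by most genes is largely removed. Differences are heterozygous minus wild type on the log2 scale, with the standard error (SE) of the limma fit, and a gene passed the test where its Benjamini-Hochberg adjusted p over all 14953 genes was under 0.05.

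Hspa9 encodes mortalin, the HSP70 chaperone of mitochondria. It read 9.49, 9.57, 10.36, 10.17 and 9.99 in wild type replicates 1 to 5 and 9.52, 8.92, 9.30, 9.21 and 8.97 in the heterozygous ones, so that only heterozygous 1 lay inside the wild type range. The difference was -0.73 (SE 0.185), a level of 60.3% of wild type (95% interval 45.4% to 80.0%), with an exact two-sided permutation p of 0.0159 over all 252 splits. Its limma adjusted p was 0.345 and ran from 0.0381 to 0.655 over the alternatives, the lowest with array weights (-0.79), which count arrays less the farther they lie from the fit. B lineage markers averaged 11.14 ± 0.0987 (SD, n = 5) in wild type and 10.98 ± 0.200 in heterozygous cells over 10 genes. Ptprc, whose B220 isoform was the sorting marker, ran from 9.35 to 10.07 and from 7.89 to 9.76 in these groups. Markers of monocytes and macrophages were spread most widely among the arrays, with means of 5.63 to 8.82 in wild type (highest in replicate 1) and 6.97 to 9.34 in heterozygous cells (highest in replicate 2), and 14 of their 14 tested genes had a difference above 0. Neutrophil markers averaged 5.57 ± 0.706 and 6.13 ± 0.764 over 14 genes. The plasmacytoid dendritic cell markers averaged 6.57 ± 0.703 and 7.69 ± 0.616 over 5 genes. In such sorted bulk samples, fewer cells of a type and less RNA per cell cannot be told apart.

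Cytosolic chaperones bind unfolded stretches of new or damaged proteins. HSP70 proteins take up clients from J-domain proteins, which stimulate their ATPase, release them through nucleotide exchange factors and pass some on to HSP90 with the help of linking co-chaperones. Heat shock factor 1 induces most of these genes by binding heat shock elements, arrays of the unit GAA in alternating orientation. In the ER lumen the HSP70 protein BiP (Hspa5) is also a sensor: when clients draw it away from the membrane proteins Ire1, Perk and Atf6, the unfolded protein response raises chaperones, disulfide isomerases and the machinery that returns misfolded proteins to the cytosol for degradation. BiP carries its name from the immunoglobulin heavy chains it binds in B lineage cells, where their assembly passes through these chaperones.

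Across both compartments 0 of the 31 genes passed the test, as did 0% of all genes. At an unadjusted limma p under 0.05 stood 1 of the 14 cytosolic genes (7.14%; Fkbp4, higher) and 3 of the 17 ER genes (17.6%; Sdf2l1 and Hyou1 higher, Dnajb9 lower). The background at that level was 11% of all genes in either direction, 6.79% higher and 4.25% lower, so the shares of the 2 lists lay to either side of it. In no member did the 5 heterozygous arrays lie all above or all below the 5 wild type arrays, against 1.47% of all genes that lay apart with higher and 0.809% with lower heterozygous values. The median difference was -0.05 over the cytosolic genes, 0.03 over the ER genes and 0.06 over all genes tested. Averaged over its genes, the cytosolic list stood at 8.63 ± 0.166 (SD, n = 5) in wild type and 8.60 ± 0.105 in heterozygous cells, and the ER list at 9.37 ± 0.144 and 9.41 ± 0.0914.

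**Figure D1:**
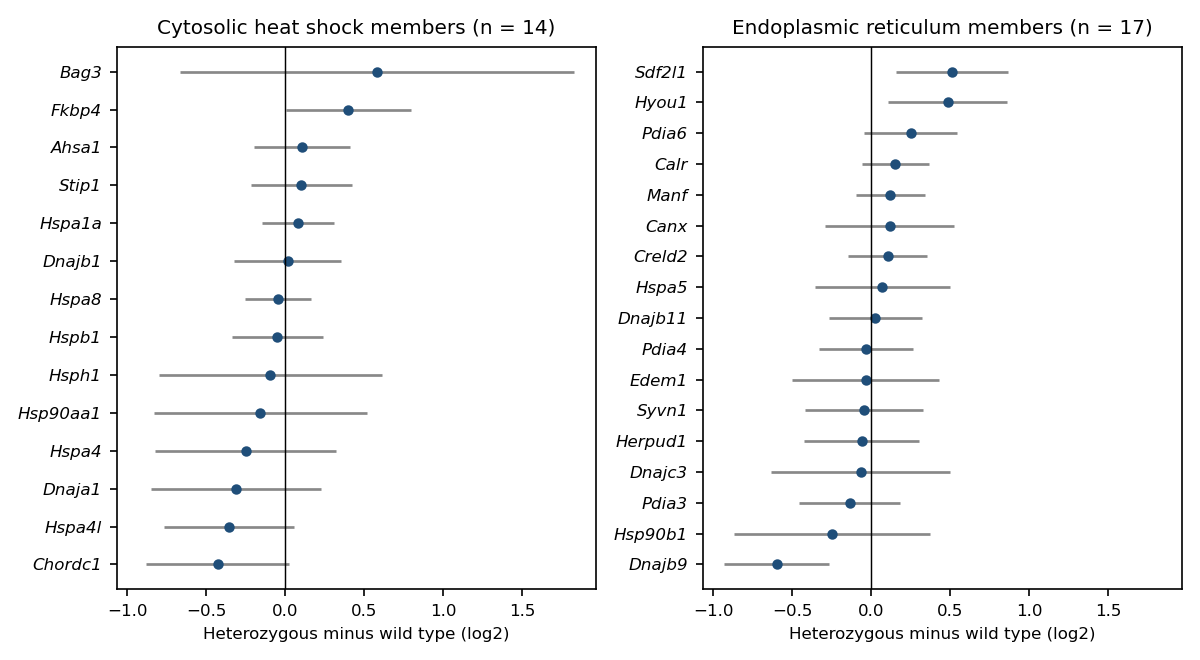
Difference between heterozygous and wild type cells (log2, horizontal axis) for the 14 cytosolic and 17 ER genes, each ordered by its difference; points are limma estimates over 5 arrays per genotype and lines their 95% intervals. The interval leaves out 0 for Fkbp4, Sdf2l1, Hyou1 and Dnajb9, none of which passed the adjusted test, and Bag3 has the widest interval.

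Among the cytosolic HSP70 proteins, the constitutive Hspa8 read 11.92, 12.08, 12.28, 12.31 and 12.14 in wild type and 12.17, 12.04, 12.09, 12.14 and 12.08 in heterozygous cells. The heterozygous arrays all lay inside the wild type range, and the difference of -0.04 (SE 0.095) had a 95% interval of -0.25 to 0.17. The heat-inducible Hspa1a, uncertain as said above, was at 5.89, 6.05, 5.58, 5.82 and 5.94 against 5.88, 6.08, 5.87, 5.87 and 5.97, a difference of 0.08 (SE 0.104) with an interval of -0.15 to 0.31. The 3 nucleotide exchange factors of the HSP110 family were each lower on average in heterozygous cells without passing the test. Hspa4 read 8.66, 8.87, 9.90, 9.80 and 9.53 in wild type and 9.53, 9.09, 9.31, 8.97 and 8.61 in heterozygous cells, a difference of -0.25 (SE 0.260). Hspa4l, its relative, was at 6.59, 5.92, 6.67, 6.77 and 6.23 against 6.44, 6.25, 6.02, 5.998 and 5.70, a difference of -0.35 (SE 0.186, adjusted p = 0.494). In both genes only heterozygous 5 fell below the lowest wild type array. Hsph1, the third of the family, differed by -0.09 (SE 0.321) and ranged from 7.31 to 8.96 in wild type, more widely than between the genotypes.

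The J-domain proteins of the list did not stand apart by genotype. Dnajb1, which delivers clients to inducible HSP70, was at 8.19, 8.27, 7.90, 7.55 and 8.12 in wild type and at 7.94, 7.87, 7.82, 8.24 and 8.24 in heterozygous cells, a difference of 0.02 (SE 0.153). Dnaja1, its farnesylated counterpart, read 9.57, 10.12, 10.82, 10.80 and 10.41 against 10.37, 10.04, 10.19, 10.05 and 9.51. All heterozygous values but that of replicate 5 lay within the wild type range, and the difference was -0.31 (SE 0.244, adjusted p = 0.598). A second, dimmer probe set of Dnaja1 ran from 7.85 to 8.75 in wild type and from 7.26 to 8.24 in heterozygous cells. A further probe set, left out because it carries several symbols, went the other way. It ran from 9.27 to 9.47 in wild type and from 9.50 to 9.90 in heterozygous cells.

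The HSP90 co-chaperones Fkbp4 and Chordc1 had the smallest p of the cytosolic list, with differences in opposite directions. Fkbp4 (FKBP52), a prolyl isomerase that accompanies HSP90 on steroid receptors, read 9.20, 9.96, 10.03, 9.78 and 9.65 in wild type and 10.16, 9.66, 10.10, 10.38 and 10.32 in heterozygous cells. In 4 of the 5 heterozygous arrays it was above the highest wild type array, and replicate 2 was not. The difference was 0.40 (SE 0.180, adjusted p = 0.449), which is 132% of wild type with an interval of 100% to 174%. It was 0.27 without wild type 1, the lowest array, and 0.52 without heterozygous 2. Chordc1 (CHP-1, also morgana), a zinc-binding HSP90 partner, went the other way with 8.01, 8.10, 8.78, 8.87 and 8.20 in wild type and 8.36, 7.99, 7.95, 8.03 and 7.50 in heterozygous cells. Here 3 heterozygous arrays lay below the lowest wild type array, and the difference of -0.42 (SE 0.205) had an adjusted p of 0.472. Ahsa1, the activator of the HSP90 ATPase, was at 9.64, 10.11, 10.28, 10.13 and 10.13 against 10.18, 9.87, 10.15, 10.41 and 10.23, a difference of 0.11 (SE 0.138). Stip1, which joins HSP70 to HSP90, differed by 0.10 (SE 0.145), and the inducible HSP90 itself, Hsp90aa1, by -0.16 (SE 0.306).

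Bag3, which couples HSP70 to small heat shock proteins in selective autophagy, had the largest mean difference of the cytosolic list, 0.58, with an SE of 0.567. It read 7.54, 6.21, 5.09, 4.71 and 5.25 in wild type and 5.85, 8.02, 5.88, 5.92 and 6.04 in heterozygous cells, so the spread within each genotype was far wider than the difference between them. Without heterozygous 2 the difference was 0.16, and without wild type 1 it was 1.02. The 2 arrays at 7.54 and 8.02 were those with the highest macrophage marker means, 8.82 and 9.34. Over the 10 arrays the deviations of Bag3 from its genotype means and those of the macrophage mean had a Pearson r of 0.98 and a Spearman rho of 0.88, given as a description, since both values of an array come from 1 RNA and 1 hybridisation. The r was 0.93 over the 8 arrays left without these 2. With the macrophage mean as a covariate the difference of Bag3 was -0.18. Hspb1, a small heat shock protein, differed by -0.05 (SE 0.131).

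**Figure D2:**
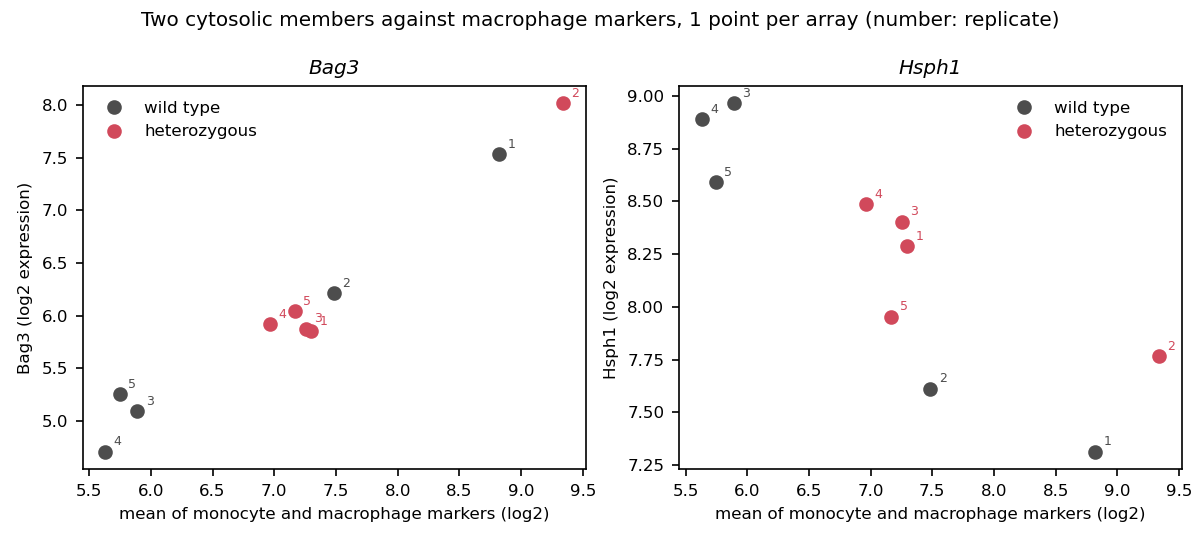
Expression of Bag3 (left) and Hsph1 (right) against the mean of the monocyte and macrophage markers (all log2), 1 numbered point per array of 5 wild type and 5 heterozygous mice. Bag3 is highest on wild type 1 and heterozygous 2, where the marker mean is 8.82 and 9.34, and Hsph1 is lowest on wild type 1 and highest on wild type 3.

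Promoter sequence from RefSeq (GRCm38.p6, from 250 bases before to 50 bases after each annotated start, 32851 promoters) was searched on both strands to see what the members share beyond their expression. Promoters were at hand for 13 cytosolic genes (17 promoters) and 15 ER genes (15 promoters), with none for Hspa8, Hsp90aa1, Hsp90ab1, Hsf1, Manf and Hyou1. A run of 3 heat shock units (GAANNTTCNNGAA or TTCNNGAANNTTC) was in 0.603% of all promoters and in those of Chordc1 and Hsph1, 3 of the 17 cytosolic promoters. The 2-unit core (GAANNTTC or TTCNNGAA), which lies inside every 3-unit run, was in 15.1% of all promoters, in 9 of the 17 cytosolic ones (52.9%, 8 of the 13 genes) and in 0 of the 15 ER ones. The 2 promoters of Hsph1 overlap and hold the same run, which is counted for each. The cytosolic genes were listed as the heat shock response, so these shares describe the list. Matches of 6 genes described above are shown, each with the sequence of the gene's own strand read 5′ to 3′ and the units GAA and TTC of a match in capitals. Chordc1 carries 5 units in a row across its annotated start, at chr9:18292260-18292288 (plus strand). Hsph1 has its run at chr5:149636287-149636308 (minus strand), Fkbp4 a core at chr6:128438790-128438817 (minus), Hspa1a at chr17:34972243-34972270 (minus), Hspb1 at chr5:135887792-135887819 (plus) and Bag3 at chr7:128523615-128523632 (plus). Not shown are further cores of Hspb1, Chordc1 and Hsph1 and those of Dnaja1 and Hspa1b.
Chordc1: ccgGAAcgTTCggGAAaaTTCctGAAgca
Hsph1: gctgcagaTTCtgGAAagTTCt
Fkbp4: cgcttctctaGAAagTTCtccgctcccg
Hspa1a: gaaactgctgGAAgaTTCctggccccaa
Hspb1: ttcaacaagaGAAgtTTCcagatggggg
Bag3: gatgggaccaGAAgtTTC
The differences of the measured genes with such letters had both signs, and none of these genes passed the test. Chordc1, with the longest run, differed by -0.42 and Fkbp4, with a single core, by 0.40, while Dnaja1, Hsph1, Hspb1, Hspa1a and Bag3 differed by -0.31, -0.09, -0.05, 0.08 and 0.58. A match is a string of letters and not a measured binding site.

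In the ER, BiP itself (Hspa5) was at 9.73, 10.08, 10.67, 10.35 and 10.03 in wild type and at 10.55, 10.50, 10.29, 10.08 and 9.78 in heterozygous cells. The groups covered the same range, and the difference of 0.07 (SE 0.194) had a 95% interval of -0.36 to 0.50. The ER form of HSP90, Hsp90b1 (GRP94), read 10.59, 10.70, 11.70, 11.69 and 11.09 against 11.37, 11.21, 11.11, 10.61 and 10.21, a difference of -0.25 (SE 0.281, adjusted p = 0.704). Its heterozygous values ran lower than wild type 3 and 4 and overlapped the rest.

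3 partners of BiP held the smallest p of the ER list. Dnajb9 (ERdj4), a J-domain protein that returns BiP to Ire1 and takes part in ER-associated degradation, read 7.90, 7.75, 8.03, 8.07 and 8.08 in wild type cells. In heterozygous cells it read 7.18, 7.90, 7.29, 7.41 and 7.07, below the lowest wild type array in 4 of 5 and within the wild type range in replicate 2. The difference was -0.60 (SE 0.151), a level of 66.1% of wild type (interval 52.5% to 83.2%), with an adjusted p of 0.345. With array weights, where heterozygous 2 had a weight of 0.477, it was -0.71 with an adjusted p of 0.0274, and it was the only member that passed in any alternative. The adjusted p ran from 0.0274 to 0.655 over the alternatives and was 0.0984 without heterozygous 2 (-0.73).

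Sdf2l1, a binding partner of ERdj3 that helps keep clients soluble, was at 8.30, 8.84, 8.61, 8.49 and 8.63 in wild type and at 8.72, 9.27, 8.75, 9.28 and 9.41 in heterozygous cells. All heterozygous values but those of replicates 1 and 3 were above the highest wild type value, and the difference was 0.51 (SE 0.162, adjusted p = 0.349), 143% of wild type (111% to 183%). Hyou1 (GRP170), a nucleotide exchange factor of BiP, read 7.99, 8.47, 8.74, 8.07 and 8.15 against 8.56, 8.63, 8.55, 9.10 and 9.001. Only heterozygous 4 and 5 were above the highest wild type array, and the difference was 0.48 (SE 0.171, adjusted p = 0.382), 140% of wild type (108% to 181%). Leaving out 1 array kept Sdf2l1 between 0.43 and 0.60 and Hyou1 between 0.40 and 0.60. With the macrophage mean as a covariate they were at 0.52 and 0.55, and Dnajb9 at -0.64. The deviations on 10 arrays had r with the macrophage mean of -0.03 for Sdf2l1, -0.33 for Hyou1 and 0.22 for Dnajb9. Over the 8 arrays without wild type 1 and heterozygous 2 these were 0.23, 0.15 and -0.79. The plasmacytoid marker mean, which was 1.12 higher in heterozygous cells, had r of -0.04 with Sdf2l1, -0.32 with Hyou1 and 0.22 with Dnajb9 over the deviations on 10 arrays. The part of these cells in the differences was not tested. Of the other BiP partners, Dnajb11 (ERdj3) differed by 0.03 (SE 0.133) and Dnajc3 (p58IPK) by -0.07 (SE 0.258).

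**Figure D3:**
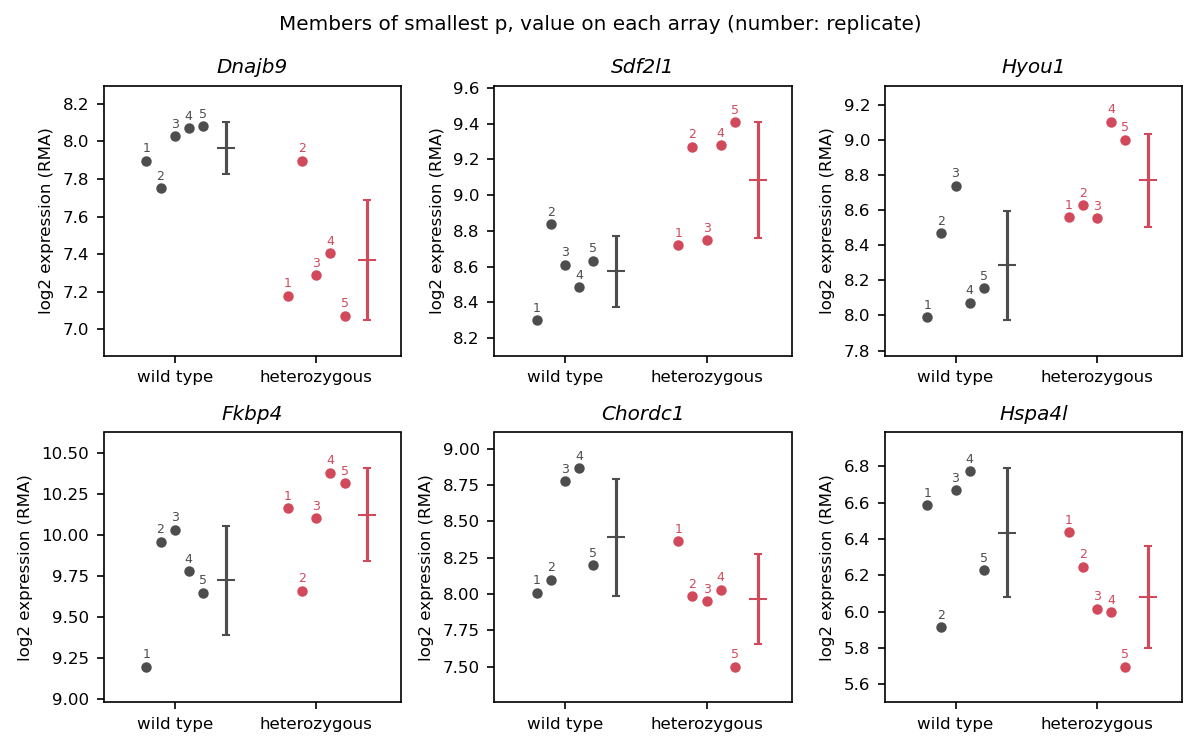
Log2 expression on each array for the 3 ER genes (top) and the 3 cytosolic genes (bottom) of smallest p, 5 wild type (grey) and 5 heterozygous (red) mice, with replicate numbers; the bars are mean ± SD. Heterozygous 2 lies with the wild type arrays for Dnajb9 and Fkbp4, and in none of the 6 genes are the genotypes fully apart.

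The isomerases and lectins showed smaller differences. Pdia6, a disulfide isomerase that attenuates Ire1, read 8.89, 9.50, 9.65, 9.37 and 9.31 in wild type and 9.51, 9.70, 9.65, 9.61 and 9.48 in heterozygous cells, a difference of 0.25 (SE 0.134, adjusted p = 0.500). The spread was much narrower among the heterozygous arrays (SD 0.0937) than among the wild type ones (SD 0.284), where replicate 1 was low. The glycoprotein isomerase Pdia3 (ERp57) was at 9.78, 9.70, 10.31, 10.12 and 9.93 against 9.95, 10.02, 9.90, 9.81 and 9.46, a difference of -0.14 (SE 0.144). Pdia4 (ERp72) differed by -0.03 (SE 0.135). A second, much dimmer probe set of Pdia4 read 5.44, 5.20, 6.02, 5.77 and 5.70 in wild type and 5.93, 4.86, 5.08, 5.32 and 5.20 in heterozygous cells. Calreticulin (Calr), the soluble lectin that works with Pdia3, was at 10.62, 10.61, 10.76, 10.53 and 10.61 in wild type and at 10.64, 11.01, 10.71, 10.72 and 10.81 in heterozygous cells. Calr was among the tightest members, and its difference of 0.15 (SE 0.0954) had an interval of -0.06 to 0.36. Its membrane-bound relative calnexin (Canx) differed by 0.12 (SE 0.186).

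Genes of ER-associated degradation did not separate the genotypes. Herpud1, a scaffold of the degradation complex, read 10.72, 10.71, 10.06, 10.05 and 10.42 in wild type and 10.07, 10.14, 10.47, 10.55 and 10.43 in heterozygous cells, a difference of -0.06 (SE 0.165). Syvn1 (HRD1), the ubiquitin ligase of that complex, was at 10.11, 10.26, 10.22, 10.18 and 10.53 against 10.08, 9.64, 10.32, 10.52 and 10.52, a difference of -0.05 (SE 0.169). All heterozygous values of Herpud1 lay within the wild type range, while 2 of Syvn1 lay below it and the others within it. The sign of both differences changed with single arrays left out, to 0.02 for Herpud1 without wild type 1 and to 0.10 for Syvn1 without heterozygous 2. Edem1, which passes trimmed glycoproteins on for degradation, differed by -0.04 (SE 0.211). The secreted response genes Manf and Creld2, known as sensitive markers of ER stress, differed by 0.12 (SE 0.0990) and 0.10 (SE 0.113).

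The ER stress response element (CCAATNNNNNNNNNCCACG, 5 fixed bases, 9 free ones and 5 fixed bases), to which NF-Y and activated Atf6 bind, was in 39 of the 32851 promoters (0.119%) and in 8 of the 15 ER promoters (53.3%). None of the 17 cytosolic promoters held it. The related ERSE-II (ATTGGNCCACG) was in 12 promoters of all (0.0365%) and in those of Herpud1 and Dnajb11, and the core that Xbp1 binds (TGACGTGG) in 0.676% of all and in 0 member promoters. The ER genes are a list known to hold these elements, so the shares describe the list. The matches are shown for comparison, on the gene's own strand, with the fixed bases in capitals, so that an element in the opposite orientation reads CGTGG before ATTGG. They lie at chr2:34772017-34772051 (Hspa5, plus strand), chr10:86705525-86705559 (Hsp90b1, minus, the nearer of its 2), chr8:84847067-84847101 (Calr, minus), chr11:50325792-50325826 (Canx, minus), chr12:17266483-17266517 (Pdia6, plus), chr14:118937819-118937853 (Dnajc3, plus), chr15:88819512-88819546 (Creld2, plus), chr19:6046524-6046558 (Syvn1, plus), chr8:94386370-94386394 (Herpud1, plus) and chr16:22857845-22857869 (Dnajb11, plus).
Hspa5: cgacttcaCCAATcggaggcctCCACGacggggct
Hsp90b1: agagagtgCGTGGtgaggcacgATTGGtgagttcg
Calr: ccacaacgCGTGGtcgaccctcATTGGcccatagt
Canx: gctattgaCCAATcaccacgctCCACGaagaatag
Pdia6: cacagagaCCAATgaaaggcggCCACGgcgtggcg
Dnajc3: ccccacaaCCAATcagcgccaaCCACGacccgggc
Creld2: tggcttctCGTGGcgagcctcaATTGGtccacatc
Syvn1: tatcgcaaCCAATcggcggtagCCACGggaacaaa
Herpud1: ggcgctgATTGGgCCACGttggaca
Dnajb11: ggcggcgATTGGcCCACGcctggct
The 8 genes with the 19-base element differed by between -0.25 (Hsp90b1) and 0.25 (Pdia6). The 2 ER genes of smallest p with a promoter at hand, Dnajb9 and Sdf2l1, held no complete element in their windows. Single parts such as CCAAT do occur in both. The 160 bases before their starts, chr12:44210069-44210228 for Dnajb9 and chr16:17132384-17132543 for Sdf2l1 (both on the minus strand), read as follows.
Dnajb9: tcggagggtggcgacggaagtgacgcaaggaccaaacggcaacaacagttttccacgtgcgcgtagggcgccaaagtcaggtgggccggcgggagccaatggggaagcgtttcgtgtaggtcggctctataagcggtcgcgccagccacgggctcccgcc
Sdf2l1: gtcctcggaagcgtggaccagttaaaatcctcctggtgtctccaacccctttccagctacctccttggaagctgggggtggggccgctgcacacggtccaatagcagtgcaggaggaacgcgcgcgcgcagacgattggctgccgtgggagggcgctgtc
With 1 of the 10 fixed bases allowed to differ, a search added after the results were known, the element was in 1.5% of all promoters and in 11 of the 15 ER promoters (73.3%), and in neither of these.

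**Figure D4:**
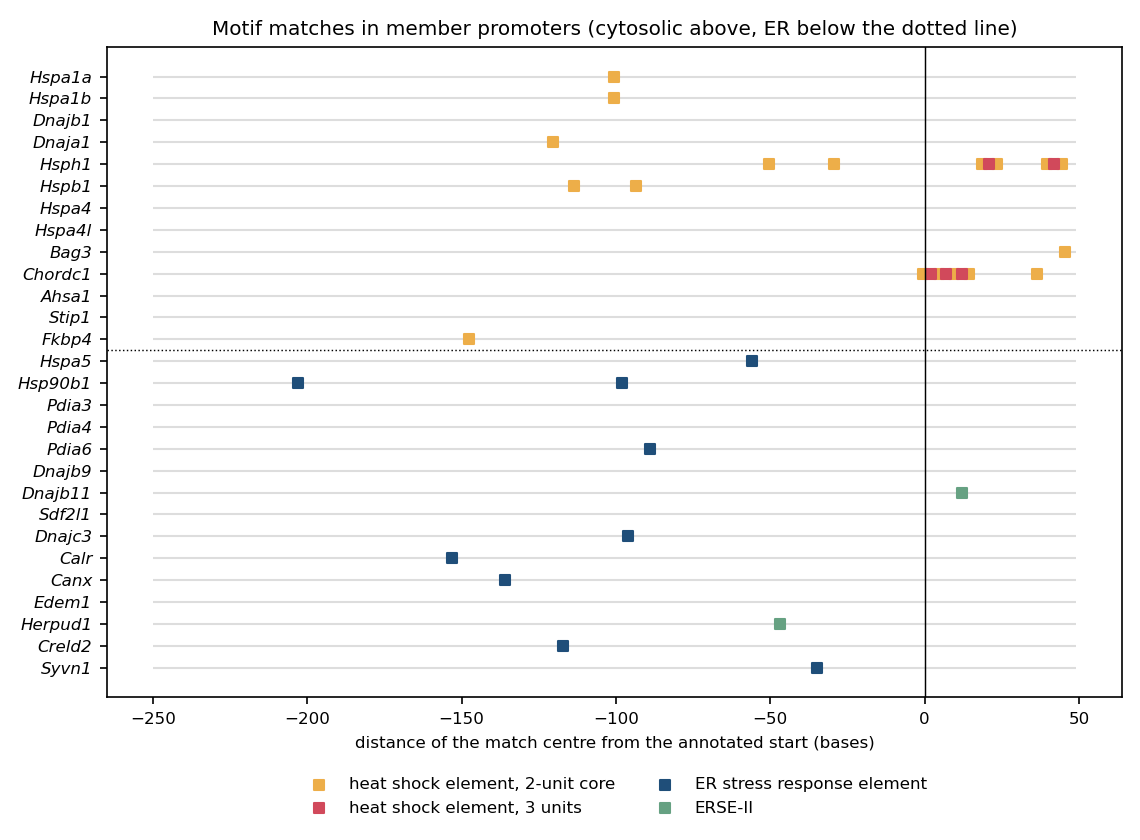
Positions of the motif matches in the member promoters (horizontal axis: distance of the centre of the match from the annotated start in bases, with the start at 0), cytosolic genes above the dotted line and ER genes below it. Grey lines mark the searched windows, several promoters of a gene share its line, and heat shock matches stand only above the dotted line and ER elements only below it.

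Within a genotype many members varied from array to array by more than the genotypes differed. The SD within genotype had a median of 0.313 over the cytosolic genes and 0.270 over the ER genes, against 0.228 over all genes, and 10 of 14 and 11 of 17 members were above that all-gene median. Bag3 (1.04), Hsph1 (0.581) and Hsp90aa1 (0.553) were the most variable, and Hspa8 (0.118), Calr (0.119) and Manf (0.129) the least.

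A group that crossed the compartments varied together. The deviations of Hsp90b1 from its genotype means, over the 10 arrays, had an r of 0.9 or more with those of 8 of the 30 other members (26.7%): Hsp90aa1, Dnaja1, Hspa4 and Chordc1 of the cytosol and Hspa5, Pdia3, Dnajc3 and Canx of the ER. Of all genes 3.91% reached this r. These genes were high on wild type 3 and 4 and heterozygous 1 and low on wild type 1 and 2 and heterozygous 5. Hsp90aa1 shows it, with 10.46, 10.86, 11.97, 12.02 and 11.48 in wild type and 11.74, 11.17, 11.33, 11.04 and 10.73 in heterozygous cells. Dnajb1 and Herpud1 had r of -0.87 and -0.87 with Hsp90b1. They were the 2 of 30 other members at -0.8 or less (6.67%), close to the 7.21% of all genes. Gene and reference were chosen after the values were seen, and all values of an array come from 1 RNA and 1 hybridisation, so these r describe the arrays only. Averaged over all pairs, r was 0.11 within the cytosolic list, 0.14 within the ER list, 0.12 between them and 0.01 over all genes.

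The mitochondrial chaperone that the study targeted varied with some of these genes and with others outside them. The deviations of Hspa9 from its genotype means had an r of 0.93 with Hspa4, 0.93 with Hsp90aa1, 0.93 with Canx and 0.92 with Hsph1, and 7 of the 31 members reached 0.8 (22.6%) against 9.97% of all genes. Of these 7, Hsp90aa1, Dnaja1, Hspa4, Chordc1 and Canx belong to the 8 above and Hspa8 and Hsph1 do not, while Hspa5, Pdia3 and Dnajc3 were at 0.71, 0.73 and 0.58 with Hspa9. Over the 8 arrays without wild type 1 and heterozygous 2 the r was 0.98 for Hspa4, 0.97 for Hsp90aa1, 0.97 for Canx and 0.87 for Hsph1. Hspa5, Pdia3 and Dnajc3 were then at 0.86, 0.96 and 0.82, so their lower r over 10 arrays depended on these 2 arrays. Macrophage markers varied inversely with part of the cytosolic list: Hsph1, Stip1, Ahsa1 and Hspa8 had r of -0.89, -0.88, -0.88 and -0.83 with the marker mean. These were 4 of the 31 members (12.9%) at -0.8 or less, against 6.39% of all genes. Without wild type 1 and heterozygous 2 the r of Stip1 was -0.36, that of Ahsa1 -0.33 and that of Hspa8 -0.69, while Hsph1 kept -0.89. With the macrophage mean as a covariate the difference of Hsph1 was 0.29 and that of Hsp90aa1 0.12, against -0.09 and -0.16 without it. The part of other cells in these values was not tested.

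**Figure D5:**
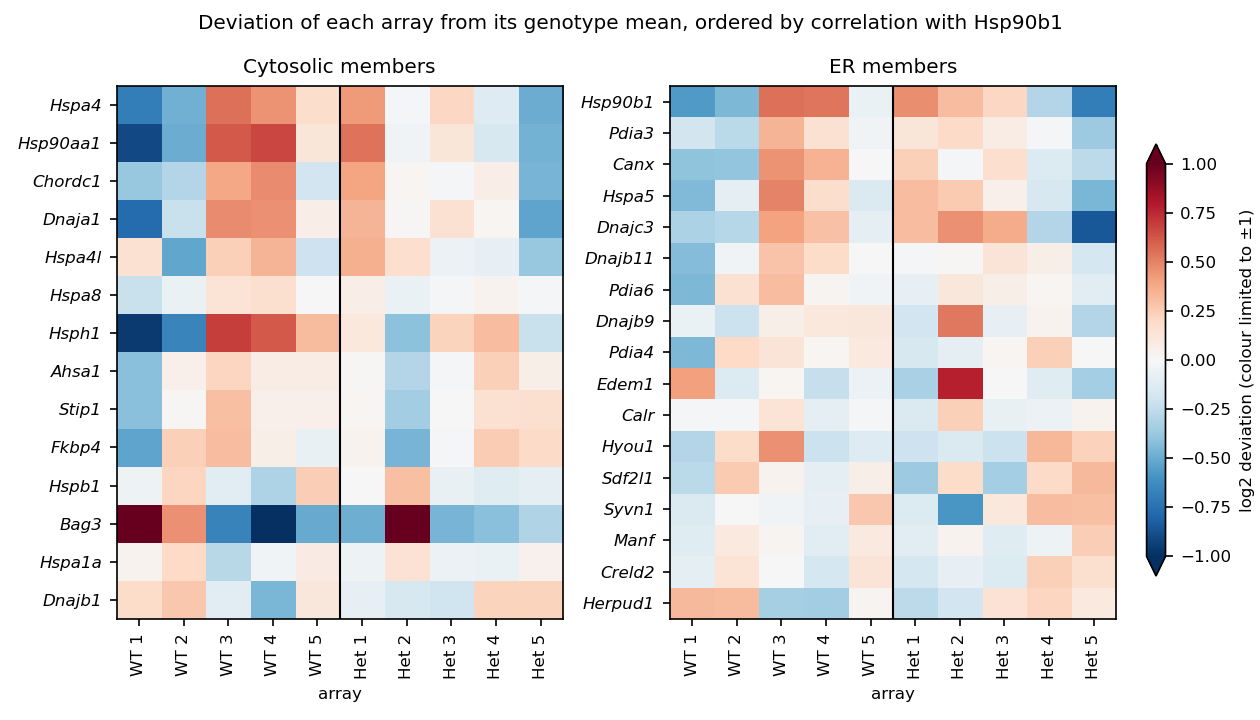
Deviation of each array from the mean of its genotype (colour, log2, limited to 1 either way) for the cytosolic (left) and ER genes (right), ordered by their correlation with Hsp90b1; columns are the 5 wild type and 5 heterozygous arrays. The upper rows of both panels are high on wild type 3 and 4 and heterozygous 1, and Bag3 is high on wild type 1 and heterozygous 2.

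The other genes of these pathways were read from 8 lists. Of their 113 tested genes (of 119 listed) 0 passed the limma test, 16 were higher and 9 lower at an unadjusted p under 0.05, 22.1% in all beside the background of 11%. Their median difference was 0.05, close to the 0.06 of all genes. In the cytosol 6 of 52 genes were higher and 3 lower (17.3% in all), and in the ER lists 10 of 62 were higher and 6 lower (25.8%).

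In the cytosol, Hspb8, the small heat shock protein that Bag3 binds, read 5.61, 6.02, 6.31, 5.85 and 5.55 in wild type and 6.80, 6.02, 6.84, 7.32 and 7.25 in heterozygous cells. In 4 of 5 heterozygous arrays it was above the highest wild type array, and the difference was 0.98 (SE 0.241, adjusted p = 0.345). The list of other HSP70 genes held 4 of 22 at p under 0.05 (18.2%, beside 11% of all genes). Among them were Hspa2, a relative that is best known from the testis, at -0.57 (SE 0.176), the J-domain gene Dnaja4 at 0.33 and the ubiquitin ligase Stub1 (CHIP) at 0.38. Among 10 further HSP90 co-chaperones only the phosphatase Ppp5c was at that level, with 0.35 (SE 0.125), and Sugt1 was next at -0.20 (SE 0.134). Of 14 subunits of the chaperonin TRiC and of prefoldin, which fold actin and tubulin, 3 were (21.4%). All were in prefoldin: Pfdn6 at 0.33, Pfdn4 at -0.30 and Vbp1 at -0.48. Among 7 heat shock factors and modifiers Hsf4 was at 0.27 (SE 0.0997) and Hspa1l, which lies beside Hspa1a, at -0.24 (SE 0.140).

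Of 12 sensors and transcription factors of the unfolded protein response, 2 were higher and 3 lower at an unadjusted p under 0.05. That is 41.7% beside 11% of all genes (6.79% higher and 4.25% lower), and the median difference of the 12 was -0.01. Xbp1, whose mRNA Ire1 splices into the form that encodes the active factor, read 8.58, 8.66, 8.44, 8.09 and 8.30 in wild type and 8.75, 8.73, 8.64, 8.91 and 9.07 in heterozygous cells, a difference of 0.41 (SE 0.129, adjusted p = 0.349). All but heterozygous 3 were above the highest wild type array. The array values do not part spliced from unspliced Xbp1. The sensor Ern1 (Ire1) differed by 0.46 (SE 0.228, adjusted p = 0.474), Eif2ak3 (Perk) by -0.31 (SE 0.136, adjusted p = 0.448) and Atf6 by -0.48 (SE 0.216, adjusted p = 0.449). On the Perk branch Atf4 differed by -0.07 (SE 0.0808) and its target Ddit3 (CHOP) by -0.34 (SE 0.125, adjusted p = 0.384), with 8.19, 7.98, 7.78, 7.91 and 8.31 in wild type against 7.46, 7.77, 7.63, 7.70 and 7.89. Creb3l2, a membrane-bound factor of the secretory pathway, was at 0.34 (SE 0.112). None of the 12 passed the adjusted test.

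Of 20 other ER folding and disulfide enzymes, 4 were higher (Mogs 0.52, Sil1 0.37, P4hb 0.36 and Fkbp2 0.27) and 2 lower (Ero1b -0.42 and Cdnf -0.33) at p under 0.05. That is 30.0% beside 11% of all genes. Sil1 is, like Hyou1, an exchange factor of BiP, and Ero1b is an oxidase that recharges disulfide isomerases. In ER-associated degradation 3 of 17 (17.6%) were at that level, the ubiquitin-conjugating enzyme Ube2g2 at 0.42, the lectin Os9 at 0.34 and the mannosidase-like Edem3 at -0.67 (SE 0.243). Among 13 genes of the translocon and signal peptidase, which bring new chains into the ER, Sec61b and Sec61a1 (15.4%) were higher, by 0.35 and 0.30. Sec61b was the only gene of the 8 lists whose genotypes did not overlap, with 11.19, 11.55, 11.30, 11.16 and 11.28 in wild type and 11.55, 11.60, 11.64, 11.71 and 11.72 in heterozygous cells (SE 0.0955, adjusted p = 0.347), though wild type 2 and heterozygous 1 were equal to the second decimal. So 1 of the 113 genes lay apart with higher and 0 with lower values, beside 1.47% and 0.809% of all genes. Plasma cell markers, a list that also holds Xbp1, averaged 6.92 ± 0.129 in wild type and 6.93 ± 0.116 in heterozygous cells (n = 5 each), and Sdc1 (CD138) differed by 0.29 (SE 0.252). The list was divided: its median over the 7 tested genes was 0.23, while Prdm1, the repressor that drives plasma cell differentiation, was at -0.73, with all heterozygous arrays below all wild type ones and an adjusted p above the threshold.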

How the data were processed

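RNA of B220+ colony cells was amplified with a NuGEN kit and hybridised to Mouse Gene 1.0 ST arrays, per the labels' protocols. The deposited values are log2 expression per probe set, which the authors made by RMA in Affymetrix Expression Console, per the labels and the submitters' processing notes. For this step the build, annotation and software versions are not given in the sources used here. Of 35556 probe sets 21789 carried 1 gene symbol, 1621 several and 12146 were not listed in the platform annotation. For each symbol the probe set of highest mean was kept, then genes above the 25th percentile of these means. Array medians over all probe sets ran from 5.38 to 5.49, and the 10 arrays limit the precision.

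The comparison of genotypes used limma 3.58.1 (R 4.3.3) with lmFit, then eBayes (no covariate, Benjamini-Hochberg adjustment over 14953 genes), checked on simulated data. Alternatives were other filters, every probe set as its own row, quantile normalization, median centring, trended variance, array weights, a replicate block, macrophage markers as a covariate and arrays left out. The members and lists were chosen with earlier results of these data known. Values by array are given for the 4 members of smallest p per compartment and direction, for members named for their role and for few others, and of each pathway list the 2 genes of smallest p are named, besides further genes at p under 0.05. No set test was run. Replicates are separate mice, per the labels.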

Additional observations from a re-analysis of the deposited data

Results flagged for a closer look

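In 4 of 64 groups of 5 arrays, 1 array lay far from the others by Dixon's test at the 95% level, where chance gives about 1 in 20. Bag3 was at 8.02 in heterozygous 2, with the next array at 6.04. Hspb1 was at 5.44 in the same array, with the next at 5.14. Ahsa1 was at 9.64 in wild type 1, with the next at 10.11, and Pdia4 at 8.80 there, with the next at 9.26. These are the arrays with the highest macrophage marker mean of their genotype.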

How the results depend on the processing

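The sign of the difference held in all 20 alternatives for 17 of the 31 members, among them Dnajb9, Sdf2l1, Hyou1, Fkbp4 and Chordc1, and changed in at least 1 for the other 14, each with an adjusted p of 0.277 or more. The count of members that passed was 0 in the cytosol throughout and 1 in the ER (Dnajb9) with array weights, which also gave 137 genes of all, 1 other pathway gene (Hspb8) and Hspa9 at -0.79. At an unadjusted p under 0.05 in place of the adjusted one, 1 cytosolic and 3 ER members passed. With array weights 3077 of all genes were at that level and with genes above the 50th percentile 1024, where Hspb1 was not tested. Of all genes, 2285 were at it with macrophage markers as a covariate and 2408 without wild type 1 and heterozygous 2, against 1650 in the main fit. Of the cytosolic members, 4 were at it with array weights, 3 with that covariate and 4 without those 2 arrays, so these counts rose where that of all genes rose. With the higher filter, quantile normalization, median centring or the replicate block 0 were. The ER members at it numbered 3, 4 and 3 in the first 3 of these settings and 3 in each of the others. Without wild type 1 and heterozygous 2, 26 of all genes passed. Leaving out 1 array gave 0 to 22 genes passing (22 without wild type 1, 3 without heterozygous 2), 1047 to 2247 at p under 0.05, and 0 to 3 cytosolic members at that level. The cause of these shifts was not tested.

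Signs turned with array weights for Dnajb11 (-0.033) and Herpud1 (0.098). With macrophage markers as a covariate they turned for Hspa8 (0.0299), Hsp90aa1 (0.12), Dnajb1 (-0.0347), Hsph1 (0.29), Bag3 (-0.18), Pdia4 (0.0653) and Syvn1 (0.0908). Without wild type 1 and heterozygous 2 they turned for Hspa5 (-0.11), Dnajb11 (-0.0852), Herpud1 (0.0684) and Syvn1 (0.0621). With 1 array left out, Hsp90aa1 ran from -0.38 to 0.0085, Dnajb1 from -0.0984 to 0.0833, Hsph1 from -0.33 to 0.0782, Hspb1 from -0.12 to 0.0127, Stip1 from -0.0007 to 0.19, Hspa5 from -0.0411 to 0.19, Pdia4 from -0.14 to 0.0179, Dnajb11 from -0.082 to 0.0966, Dnajc3 from -0.18 to 0.14, Edem1 from -0.23 to 0.0667, Herpud1 from -0.15 to 0.0207 and Syvn1 from -0.12 to 0.0991. Among members whose sign held, Hsp90b1 ran from -0.39 to -0.08, Pdia6 from 0.14 to 0.33, Hspa4 from -0.42 to -0.11, Dnaja1 from -0.50 to -0.18, and Ahsa1 from 0.0042 to 0.18.

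The labels state no pairing of mice by replicate number. Deviations of same-numbered arrays over all genes had r of -0.53, 0.21, 0.53, 0.04 and 0.31. No wild type array correlated best with the heterozygous array of its own number, which with so few arrays cannot show that the mice were unpaired. With the replicate block 0 genes passed, 1340 were at an unadjusted p under 0.05, and the adjusted p of Dnajb9 was 0.555. With 5 mice per genotype the 95% interval of a member's difference was between 0.418 (Hspa8) and 2.50 (Bag3) wide on the log2 scale.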
